A study of Sus scrofa with 6 samples.

Results

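The liver was compared with fat and muscle of the same study of pigs (Sus scrofa), using the 2 libraries labelled liver and the 4 labelled fat or muscle, so all 6 libraries of the study entered. Members were chosen by the tissue label alone. Each tissue was sampled once in a Berkshire and once in a Korean native background, which gives 2 libraries per tissue and 1 per breed and tissue. The labels name breed and tissue, state no treatment or age, and do not say which fat depot or muscle was taken or whether the libraries of a breed came from 1 animal. A p-value therefore measures only the spread among these libraries, and breed served as the only covariate.

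The liver is built mainly of hepatocytes, polarised epithelial cells that secrete most plasma proteins, dispose of nitrogen as urea, make bile and release glucose and ketone bodies to other organs. They sit beside resident macrophages (Kupffer cells), a fenestrated sinusoidal endothelium, retinoid-storing stellate cells and bile duct cells. Skeletal muscle and fat take up and burn or store the fuels that the liver releases, and both hold more connective tissue matrix.

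Levels are CPM, the usual rate of a gene's counts over the library total, scaled by TMM, a factor per library that centres most genes on the same level. Every pair of CPM values below gives Berkshire first and Korean native second. CPM is not divided by gene length, so levels are compared between libraries and never between genes. Differences are log2 values of liver minus the mean of fat and muscle from edgeR's quasi-likelihood fit, with an SE derived from the difference and its F statistic. A gene passed when its Benjamini-Hochberg adjusted p over the 13810 genes tested was under 0.05. No fitted difference is printed for a gene with 0 counts in all libraries of one side. Such a gene is given only a lower bound of its fold against the level of 3 counts per library, which lay between 0.294 and 0.692 CPM. Rankings and list medians use the fitted value unless a bound is named.

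A library held 5897407 to 7912093 counts on genes. The counts were more concentrated in liver than in fat, since 72 and 64 gene IDs held 50% of them in liver, 488 and 424 in fat and 82 and 52 in muscle. In these bulk samples, fewer cells of a type and less RNA per cell cannot be told apart. The 46 genes of the plasma carrier, coagulation and urea cycle lists that passed as higher in liver than both tissues stood at a median of 0.0438% and 0.0631% of their liver mean in fat and of 0.0522% and 0.0509% in muscle. The highest of them reached 32.1% and 22.9% in fat and 12.8% and 20.7% in muscle. Genes of these lists that did not pass against both tissues were left out, so these percentages are partly set by that choice. In liver, 17 skeletal muscle markers stood at a median of 0.0439% and 0.0339% of their muscle mean. Tested adipocyte markers stood at a median of 0.373% and 0.657% of their fat mean in liver, and at most at 48.4% and 29.7%.

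The 4 marker genes of liver were high in the libraries labelled liver. CPS1, which makes carbamoyl phosphate for urea synthesis, had 4333 and 3033 CPM in liver, 0.196 and 0.789 in fat and 1.1 and 1.15 in muscle. HRG, a plasma glycoprotein, had 10460 and 7061 CPM in liver, 0.881 and 0.789 in fat and 1.83 and 2.77 in muscle. ALB, albumin, had 176500 and 212900 CPM in liver and 20.6 to 52.6 CPM in the others. TF, the iron carrier transferrin, had 15550 and 16110 CPM in liver and 3.62 to 8.05 CPM in the others. Both livers stood above all 4 other libraries for each of these 4 genes, whose differences ran from 11.39 ± 0.48 for TF to 12.60 ± 0.49 for HRG (edgeR adjusted p 1.3e-05 and 1.1e-05).

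Liver differed from the mean of fat and muscle at 4838 of the 13810 genes (35%). Of these, 2617 were higher in liver (19%) and 2221 were lower (16.1%), and the median difference of all tested genes was 0.01. The mean of the other tissues can differ from liver through 1 of them alone, so a stricter call asked liver to pass against fat and against muscle in the same direction. It held for 1608 higher genes (11.6%) and 1059 lower genes (7.67%), as the plot of both differences shows. Both livers stood above all 4 other libraries for 3352 tested genes (24.3%) and below all 4 for 2876 (20.8%), together 45.1% of the genes.

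**Figure D1:**
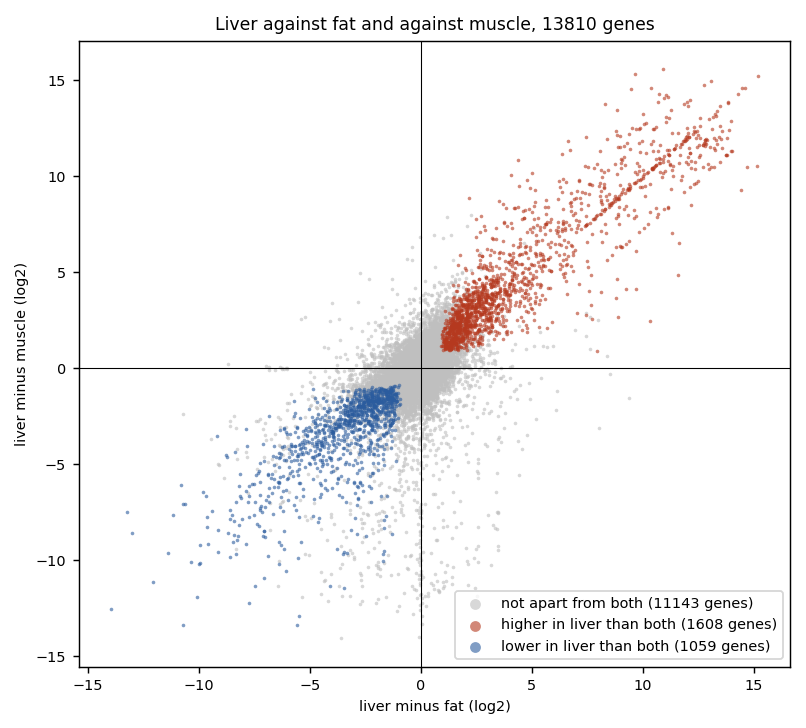
Each point is 1 of the 13810 genes tested, placed by its log2 difference of liver minus fat (horizontal) and of liver minus muscle (vertical). The 1608 red genes passed as higher in liver than both tissues, the 1059 blue genes as lower than both, and the livers enter both axes. Genes with 0 counts on one side appear at fitted values that depend on the prior count.

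With TMM scaling, the higher side was larger in size as well as in number. The 1608 genes had a median difference of 3.40, and 537 of them reached at least 5, against a median size of 2.91 and 185 genes for the lower side. The higher genes held 53.8% and 50.8% of the counts in liver, 5.44% and 5.34% in fat and 2.47% and 1.71% in muscle. No count was seen in any of the 4 other libraries for 84 of them. The lower genes held 16% and 16.6% of the counts in fat, 11.5% and 7.39% in muscle and 0.942% and 0.816% in liver, and 70 of them had no count in either liver. Of the 1608 higher genes, 1025 carry a symbol, and the 583 IDs without one held 23.3% and 19.2% of that group's liver counts.

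The balance of the calls rested on the scaling and on how the other tissues were modelled. With total gene counts in place of TMM factors the median gene moved to -0.54, and 1733 genes were higher and 4104 lower, so that 29.7% of the calls were higher against 54.1% with TMM. Against both tissues, total counts gave 1042 higher and 1879 lower genes, 35.7% higher against 60.3%. A model that pooled fat and muscle into 1 level, which by construction adds their difference to the spread, called 1149 higher and 449 lower, all of them among the calls above. It ended the call of 125 of 331 named genes, among them GYS2, PKM, PLIN1, FN1, HSPA5 and every tested skeletal muscle and adipocyte marker. Without Berkshire liver 1456 genes were lower than the mean and 670 lower than both, and without Korean native liver 1305 and 626.

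The 12 genes with the largest fitted differences among symbols higher than both tissues and with a mean of at least 50 CPM in liver were enzymes and proteins of hepatocytes. Those with no count elsewhere, such as UPB1, ASGR2 and CYP1A2, were ranked by a fitted value that depends on the prior count, so their rank is uncertain. They cover pyrimidine and amino acid breakdown (UPB1, HPD and FTCD), nicotinamide methylation (NNMT), lipoprotein assembly (APOB and A1CF, the partner of the apolipoprotein B editing enzyme), the lipopolysaccharide-binding protein LBP, drug and alcohol oxidation (CYP1A2 and ADH4), uptake of desialylated glycoproteins (ASGR2), bile acid sensing (NR1H4) and fibrinogen (FGG). UPB1, the last enzyme of uracil and thymine breakdown, had 374 and 532 CPM in liver and no count elsewhere, at least 539.8-fold higher. ASGR2 had 209.5 and 176 CPM in liver and no count elsewhere, at least 254-fold higher. LBP had 704 and 234 CPM in liver, 0.0979 and 0 in fat and 0 and 0 in muscle, with a difference of 13.76 ± 0.53 (edgeR adjusted p 1.8e-05). None of the 4 other libraries reached 1 CPM for any of these 12 genes. NNMT and CYP1A2 were absent elsewhere too but unequal between the livers, with 759 and 86.8 CPM and 415 and 17.6 CPM.

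The 12 genes at the other end, with means of at least 50 CPM in fat and in muscle, were matrix and mesenchymal genes (LUM, CILP, SFRP2, ITGBL1, PI16), the vessel-associated secreted factor ANGPTL1, fuel genes (UCP3, a mitochondrial carrier, ALDOC, an aldolase, and PLIN1, a lipid droplet coat protein), the adenosine receptor ADORA1, and the cytoskeletal genes ANK2 and FLNC. ANGPTL1 had 0.4 and 0 CPM in liver, 65.4 and 71.3 in fat and 152 and 66.7 in muscle, a difference of -8.75 ± 0.74 (edgeR adjusted p 1.8e-04). UCP3 had 0.2 and 0.166 CPM in liver, 63.3 and 95.5 in fat and 111 and 48.2 in muscle, a difference of -8.62 ± 0.73 (edgeR adjusted p 1.9e-04). ADORA1 had 0.4 and 0.994 CPM in liver, 58.1 and 70 in fat and 17.8 and 647 in muscle, a difference of -7.76 ± 1.42. Its mean of at least 50 CPM in muscle rests on the Korean native library. All 12 genes were lower in both livers than in each of the 4 others.

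Gene lists by function were read against these shares. They hold 806 distinct genes, 553 matched an ID by symbol and 528 were tested. A gene that fat and muscle lack was tested only because liver expresses it, so counts within a list describe it and are no support for a difference. Pooling fat and muscle into 1 level reduced many list counts by more than 1.5 times. It left 5 of 14 higher genes of ketone synthesis and fatty acid oxidation, 11 of 18 of phase I and conjugation, 3 of 5 of one-carbon metabolism, 7 of 11 receptors and 8 of 13 liver enzyme forms. Of lower genes it left 7 of 14 muscle and fat transcription factors, 4 of 14 muscle and fat enzyme forms, 2 of 5 caveolar genes, 10 of 21 matrix genes and none of 5 endothelial, 2 respiratory chain and 4 ribosomal protein genes. The plot of list members shows each tested gene, and list medians run from 11.04 for coagulation to -5.94 for adipocyte markers.

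**Figure D2:**
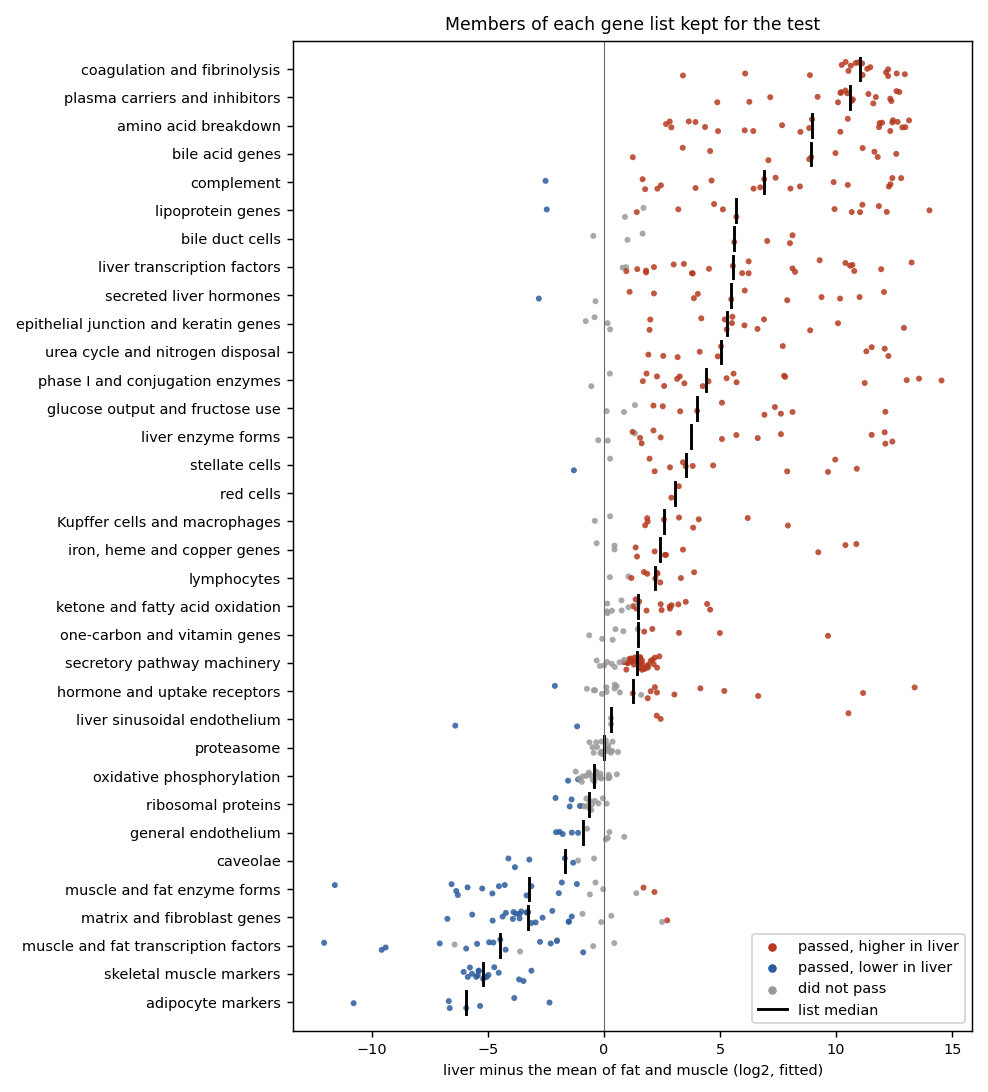
Each row is 1 of 34 gene lists and each point a tested member, placed by its fitted log2 difference of liver minus the mean of fat and muscle (horizontal). Red members passed as higher in liver and blue as lower at an edgeR adjusted p under 0.05, grey did not pass, and the black bar is the list median. Coagulation, plasma carrier and amino acid genes lie farthest right, and adipocyte and skeletal muscle markers and the muscle and fat transcription factors farthest left.

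Secreted products stood highest. Of 24 plasma carriers and protease inhibitors 18 had an ID and all 18 rose against fat and against muscle, with a median difference of 10.58. Of 23 coagulation and fibrinolysis genes 18 were tested and all 18 rose against both, with a median of 11.04, or 10.90 with F7, a coagulation protease that had no count elsewhere and is named for that, at its bound. PROS1 (protein S, an anticoagulant cofactor) differed least in that list, with 241 and 325 CPM in liver, 35.3 and 44.4 in fat and 24.7 and 11.5 in muscle and a difference of 3.40 ± 0.36 (edgeR adjusted p 5.0e-04). ITIH3, a heavy chain of the inter-alpha inhibitor, was the carrier gene with the smallest difference, and fat expressed it as well, at 462 and 123 CPM against 1493 and 1388 CPM in liver and 21.1 and 5.77 CPM in muscle.

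Complement followed with 1 member in the other direction. Of 19 tested genes 18 rose, 14 of them against both tissues, and the median was 6.90. C6, a component of the membrane attack complex, had 969.7 and 996 CPM in liver, 0 and 0.296 in fat and 0 and 0.231 in muscle, a difference of 12.80 ± 0.65 (edgeR adjusted p 1.8e-05). CFD, the factor D protease that fat is known for (also called adipsin), had 27.4 and 21 CPM in liver, 116 and 197 in fat and 120.3 and 138 in muscle. Both livers lay below all 4 others for CFD, which fell by 2.52 ± 0.36 (edgeR adjusted p 0.0018).

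Hormones and growth factors that the liver is known to secrete were less uniform. Of 26 listed, 16 had an ID and 13 were tested, and 11 rose, 1 fell and 1 did not pass. LECT2, a hepatocyte-derived chemotactic factor, had 206 and 667 CPM in liver, 0.196 and 0.394 in fat and 0.183 and 0 in muscle, a difference of 11.01 ± 0.50 (edgeR adjusted p 1.4e-05). IGFBP1, a binding protein for insulin-like growth factors, had 249.5 and 56.8 CPM in liver and at most 0.0986 CPM elsewhere. HGFAC and MST1 (the activator of hepatocyte growth factor and a macrophage-stimulating growth factor), INHBE (an activin subunit), THPO (thrombopoietin), ANGPTL6, IGFALS (which carries IGF1 in plasma) and GDF2 rose as well, with differences from 3.87 ± 0.29 for THPO to 10.17 ± 0.49 for HGFAC.

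IGF1 itself did not pass. It had 7.8 and 34 CPM in liver, 17.5 and 32.4 in fat and 22.7 and 20.3 in muscle, so the livers were the lowest and the highest of the 6 libraries, and its difference was -0.37 ± 0.46 (edgeR adjusted p 0.57). AGT, the precursor of angiotensin, rose by 1.10 ± 0.32 (edgeR adjusted p 0.036), yet fat held 657 and 399 CPM against 769.5 and 306 in liver and 185 and 50.5 in muscle. The AGT call ended with fat and muscle pooled and under 6 further alternatives. In these the difference was 1.07 when the Berkshire liver and 1.11 when the Korean native liver was left out, 0.90 without Berkshire fat, 0.91 without Korean native muscle, 0.54 with total counts and 1.11 without the breed term. IGFBP4 rose by 2.15 ± 0.38, but without Berkshire liver the difference was 1.33 (edgeR adjusted p 0.055). ENHO, which encodes adropin, was the member that fell, with 1.2 and 1.16 CPM in liver, 2.64 and 2.17 in fat and 22.3 and 36 in muscle and a difference of -2.81 ± 0.43. FGF21 stayed at or under 1.615 CPM in every library, and the IDs of FGF19 and EPO had no count in any.

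Receptors on the hepatocyte surface were, with TMM scaling, higher in liver or did not pass, with 1 exception. Of 23 tested, 11 rose, 1 fell and 11 did not pass, with a median of 1.24. With total counts 9 rose and 4 fell. ASGR1, the second chain of the asialoglycoprotein receptor, had 199 and 349.6 CPM in liver, 0.0979 and 0.0986 in fat and 0 and 0.231 in muscle, a difference of 11.16 ± 0.44 (edgeR adjusted p 1.1e-05). EGFR had 159 and 234 CPM in liver, 40.7 and 50.1 in fat and 56 and 45.7 in muscle, a difference of 2.01 ± 0.27. Both livers were above all 4 others for ASGR1 and for EGFR. The growth hormone receptor GHR had 148 and 402 CPM in liver, 328 and 193 in fat and 112 and 99.6 in muscle and did not pass (0.68 ± 0.47, edgeR adjusted p 0.3); it passed without Berkshire liver, at 1.53. FGFR1, the fibroblast growth factor receptor of mesenchymal cells, fell by 2.12 ± 0.33, from 52.8 to 131 CPM in the others to 19.2 and 19.6 CPM.

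Genes of the secretory pathway rose against the mean by smaller steps. Of 53 listed genes for translocation into the endoplasmic reticulum, folding, glycosylation and export, 44 were tested. Against the mean 36 rose and 8 did not pass, and the median was 1.40. Only 19 passed as higher than both tissues, and 4 with total counts. HSP90B1, a chaperone of the endoplasmic reticulum, had 1608 and 1132 CPM in liver, 436 and 352 in fat and 330 and 197 in muscle, a difference of 2.09 ± 0.29 (edgeR adjusted p 0.0016). HSPA5, the chaperone BiP, had 887 and 615 CPM in liver, 254 and 257 in fat and 155 and 158 in muscle, a difference of 1.89 ± 0.28. PDIA4, which forms disulphide bonds, showed the largest difference of the list, with 685 and 447 CPM in liver, 136 and 121 in fat and 109 and 70.8 in muscle and 2.38 ± 0.27. The livers lay above all 4 others for these 3 genes and for 37 of the 44. With total counts 22 members rose, without Berkshire liver 18, and in the model that pooled fat and muscle 8.

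Nitrogen and amino acid metabolism was among the largest differences. All 11 tested genes of the urea cycle and nitrogen disposal rose (13 listed, median 5.04), and so did all 25 tested genes of amino acid breakdown (33 listed, median 8.96, or 7.67 with 4 genes at their bounds). HPD, of tyrosine breakdown, had 1560 and 1985 CPM in liver, 0.0979 and 0.0986 in fat and 0.366 and 0.231 in muscle. AHCY, which hydrolyses S-adenosylhomocysteine and is expressed in most tissues, was the smallest of these, with 254 and 248 CPM in liver, 20.8 and 25.6 in fat and 53.6 and 85.3 in muscle and a difference of 2.67 ± 0.27 (edgeR adjusted p 3.8e-04). GOT1, the cytosolic aspartate aminotransferase, differed least among the nitrogen genes (1.91 ± 0.40), and Korean native muscle at 171 CPM came close to Korean native liver at 179. Without Berkshire liver GOT1 stood at 1.17 and did not pass.

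Bile acid, lipoprotein and detoxification genes rose with exceptions. Of 19 bile acid genes 11 were tested and all 11 rose, with a median of 8.93. CYP7A1, the rate-limiting enzyme of bile acid synthesis, had 339.9 and 452 CPM in liver, 0.196 and 2.96 in fat and 0.549 and 0.461 in muscle, a difference of 8.93 ± 0.63 (edgeR adjusted p 8.6e-05). ATP8B1, a phospholipid flippase of many epithelia, rose least, at 1.24 ± 0.32, and did not pass with total counts (0.68), without Berkshire fat (0.97) or without Berkshire liver (0.97).

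Among 15 tested lipoprotein genes 12 rose, 1 fell and 2 did not pass, with a median of 5.70. APOB had 494 and 671 CPM in liver, 0 and 0.0986 in fat and 0 and 0 in muscle. The ID matched to APOA1, an apolipoprotein that liver is known to make, had only 1.2 and 1.33 CPM in liver and was not tested; it is named after its value was seen, and whether that ID covers the gene's reads was not tested. APOE was high in liver, at 8591 and 5863 CPM, and also present in fat, at 1049 and 896 CPM, with 74.5 and 21.7 CPM in muscle. VLDLR, a receptor through which muscle and fat take up lipoprotein lipid, was the member that fell, with 30.4 and 21.4 CPM in liver, 95.8 and 58.3 in fat and 189 and 338 in muscle and a difference of -2.47 ± 0.43 (edgeR adjusted p 0.0044).

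Of 44 phase I and conjugation enzymes only 20 had an ID, and 18 of them rose, with a median of 4.37. ALDH2, which oxidises acetaldehyde, had 829 and 964 CPM in liver, 30.9 and 47.9 in fat and 172 and 304 in muscle, a difference of 3.26 ± 0.29 (edgeR adjusted p 2.3e-04). FMO1, a flavin monooxygenase, had 2669 and 7589 CPM in liver, 293 and 74.2 in fat and 262 and 33.2 in muscle, a difference of 5.71 ± 0.94. This list also held wide gaps between the livers, of which CYP2A19 has the largest among list members (1585 and 0 CPM). CYP2E1 had 5397 and 7.12 CPM and FMO5 2351 and 12.9 CPM. The FMO5 call (5.58 ± 1.80, edgeR adjusted p 0.0496) ended without Berkshire liver (0.48), without Berkshire fat (3.37), without Berkshire muscle (3.92) and with total counts (4.95). These enzymes belong to families of similar genes, so reads may be split between copies.

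Fuel genes were higher in liver in part. Of 13 tested genes of glucose output and fructose use 10 rose, with a median of 4.01. PCK1, which commits carbon to glucose synthesis, had 2339 and 294 CPM in liver, 78.3 and 6.9 in fat and 6.04 and 0.692 in muscle, a difference of 6.91 ± 0.33 (edgeR adjusted p 1.6e-05). PC, pyruvate carboxylase, lay between the other tissues, with 323 and 309 CPM in liver, 1087 and 935 in fat and 127 and 54.4 in muscle and a difference of 0.11 ± 0.35 (edgeR adjusted p 0.83). In ketone synthesis and fatty acid oxidation 14 of 22 tested genes rose, with a median of 1.48, and 10 rose against both tissues. CAT, the peroxisomal enzyme catalase, and ACADM, of mitochondrial oxidation, rose by 3.52 ± 0.32 and 2.84 ± 0.32. HADHB, a subunit of the mitochondrial trifunctional protein, did not pass, with 176 and 210.1 CPM in liver, 151 and 131 in fat and 198 and 248 in muscle and 0.12 ± 0.27 (edgeR adjusted p 0.77).

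One-carbon and iron genes were mixed. Of 11 tested one-carbon and vitamin genes 5 rose and 6 did not pass (median 1.45), and of 12 iron, heme and copper genes 9 rose and 3 did not pass (median 2.40). TFR2, the hepatocyte transferrin receptor that senses iron, had 361 and 249 CPM in liver, 0.0979 and 0.296 in fat and 0 and 0.231 in muscle, a difference of 10.87 ± 0.52 (edgeR adjusted p 1.6e-05). TFRC, the transferrin receptor of most cells, had 88.6 and 554 CPM in liver, 14.1 and 38.4 in fat and 219 and 461 in muscle; the livers were on both sides of the muscles. Its call (1.42 ± 0.37) ended without Korean native liver (0.67), Korean native fat (1.29) or Korean native muscle (1.14), with total counts (0.89) and without the breed term (1.77).

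Transcription factors that specify hepatocytes were high in liver and most were near 0 elsewhere. Of 30 listed factors 25 were tested and 23 rose, 20 of them against both tissues, with a median of 5.55, or 4.52 with 3 genes at their bounds. HNF4A, a nuclear receptor at the head of the hepatocyte programme, had 948 and 812 CPM in liver, 0.392 and 0.394 in fat and 0 and 0.231 in muscle, a difference of 11.94 ± 0.49 (edgeR adjusted p 1.2e-05). GATA4 and NR1H4 (the bile acid receptor FXR) had 28.6 and 27.7 CPM and 147 and 213 CPM in liver and no count in the 4 others, at least 39.99-fold and 212-fold higher. CREB3L3, a hepatocyte factor activated by cleavage, had 276 and 317 CPM in liver, 0.196 and 0.197 in fat and 0.183 and 0.231 in muscle, a difference of 10.40 ± 0.35. PROX1, a homeobox factor shared with lymphatic endothelium, had 234 and 152 CPM in liver, 1.57 and 2.46 in fat and 8.05 and 8.53 in muscle, a difference of 5.55 ± 0.33.

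Other factors of the list were less restricted. MLXIPL, the glucose sensor ChREBP, passed against the mean (2.15 ± 0.29) with 286 and 260.2 CPM in liver, 226 and 174 in fat and 26.9 and 13.4 in muscle. CEBPA, which serves both hepatocytes and adipocytes, was highest in fat, with 44.4 and 66 CPM in liver, 113 and 129 in fat and 11 and 3 in muscle, and did not pass (0.95 ± 0.45, edgeR adjusted p 0.15); it passed without Berkshire muscle, at 1.55. NFIA was the other member that did not pass (0.80 ± 0.26, edgeR adjusted p 0.053), though limma-voom called it. The calls of PPARA (1.81 ± 0.32) and TBX3 (1.43 ± 0.29) ended without Berkshire liver, at 1.29 and 1.27, and that of TBX3 also with total counts, at 0.87. XBP1, at 0.96 ± 0.25, lost its call with total counts (0.41) and without either liver (0.74 without Berkshire and 1.17 without Korean native) or either fat library (0.92 and 0.99). DESeq2 did not call ONECUT2, which had 4 and 7.12 CPM in liver and no count elsewhere.

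Factors of muscle and fat ran the other way. Of 32 listed factors 19 were tested and 14 fell, with a median of -4.47, or -2.30 with 6 genes at their bounds. EBF2, a factor of adipocyte precursors, had no count in liver and 12.5 and 24.3 CPM in fat and 11.5 and 9 CPM in muscle, at least 15-fold higher. PPARG, the adipocyte nuclear receptor, had 0.2 and 0.994 CPM in liver, 164 and 138 in fat and 17 and 6 in muscle, a difference of -5.94 ± 0.68 (edgeR adjusted p 7.0e-04). MEOX2, EBF3 and ZNF423 fell too, and both livers lay below all 4 others for 12 of the 19 tested factors. MYOD1, a muscle factor, had 0.2 and 0.166 CPM in liver, 0 and 0 in fat and 24.9 and 45.7 in muscle. MYF6, another, had 0 and 0 CPM in liver, 0 and 0 in fat and 193 and 99.4 in muscle, and they did not pass in edgeR (adjusted p 0.9 and 1), though limma-voom called both lower. HLF, a circadian factor, did not pass (0.44 ± 0.30, edgeR adjusted p 0.31). MEF2D had 103 and 85.5 CPM in liver, 90 and 79.8 in fat and 346 and 384 in muscle, and its call (-0.90 ± 0.28) ended without either liver (-1.04 without Berkshire and -0.78 without Korean native), without either fat library (-0.88 and -0.94) and without Korean native muscle (-0.82).

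**Figure D3:**
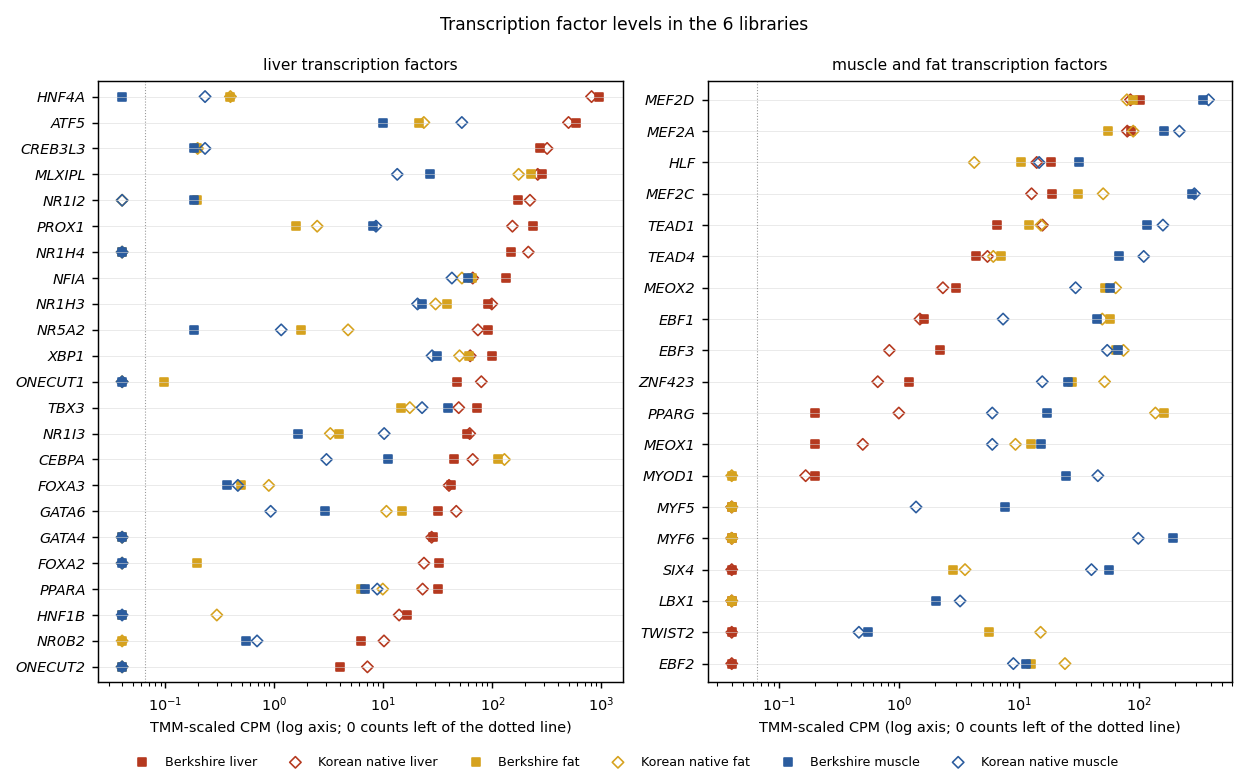
Each row is a transcription factor and each symbol 1 of the 6 libraries (square Berkshire, open diamond Korean native; red liver, yellow fat, blue muscle), placed by TMM-scaled CPM on a log axis, with 0 counts left of the dotted line. The left panel lists factors of liver and the right panel those of muscle and fat, each ordered by liver level. HNF4A, at 948 and 812 CPM in liver, and EBF2, with no count there, mark the contrast.

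Enzymes that exist in separate tissue forms differed in opposite directions. Of 16 tested liver forms 13 rose, with a median of 3.76, and of 20 tested muscle and fat forms 14 fell and 2 rose, with a median of -3.24. With fat and muscle pooled, 8 of the liver forms rose, and 4 of the muscle and fat forms fell and 0 rose. MAT1A, the liver form of methionine adenosyltransferase, had 2145 and 1593 CPM in liver, 0.196 and 0.493 in fat and 0.549 and 0 in muscle. MAT2A, the form of other tissues, had 129 and 165 CPM in liver, 242 and 231 in fat and 257 and 172 in muscle and did not pass (-0.61 ± 0.31, edgeR adjusted p 0.18), except with total counts, at -1.15. Both livers were above all others for MAT1A and below all others for MAT2A.

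The glucose transporters showed the same opposition. SLC2A2, the transporter GLUT2 of hepatocytes, had 222 and 194 CPM in liver, 0 and 0 in fat and 0 and 0.231 in muscle, a difference of 12.12 ± 0.54 (edgeR adjusted p 3.2e-05). SLC2A4, the insulin-responsive GLUT4, had 0 and 0.497 CPM in liver, 4.7 and 5.42 in fat and 5.49 and 6 in muscle, a difference of -4.28 ± 0.74 (edgeR adjusted p 0.0043). HK2, a hexokinase that traps glucose in the cell, had no count in liver and 27.6 to 118 CPM in the others, which were at least 46-fold higher.

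Pyruvate kinase and carnitine palmitoyltransferase pairs differed likewise. PKLR (liver pyruvate kinase) had 33.6 and 56.2 CPM in liver, 0.0979 and 0.197 in fat and 0 and 0.692 in muscle, and PKM (the muscle form) 59.6 and 56.3 CPM in liver, 320.3 and 612 in fat and 3227 and 12260 in muscle. The differences were 7.62 ± 0.48 and -4.81 ± 0.60 (edgeR adjusted p 4.9e-05 and 0.001). CPT1A and CPT1B, which admit fatty acids to mitochondria in liver and in muscle, had 289 and 182 CPM and 2.6 and 2.32 CPM in liver against 12.7 to 77.6 and 5.82 to 114 CPM in the others, differences of 2.44 ± 0.38 and -3.34 ± 0.36. GLS2 (liver glutaminase) had 116 and 192 CPM in liver, 0 and 0.0986 in fat and 0 and 0 in muscle. OXCT1, with which other organs burn the ketone bodies that the liver exports, had 12 and 11.6 CPM in liver, 547 and 529.9 in fat and 398 and 355 in muscle, a difference of -5.25 ± 0.37 (edgeR adjusted p 8.3e-05). BCAT2, the first step of branched-chain amino acid breakdown in muscle, had 14 and 7.46 CPM in liver, 92.2 and 49.99 in fat and 85.5 and 149 in muscle, a difference of -3.13 ± 0.48.

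Glycogen synthase did not follow this opposition. GYS2, the liver form, had 618 and 466 CPM in liver, 82 and 34.5 in fat and 12.3 and 1.15 in muscle, a difference of 5.08 ± 0.51 (edgeR adjusted p 4.0e-04). GYS1, the muscle form, was also highest in liver, with 3739 and 5154 CPM in liver, 1623 and 1299 in fat and 949 and 1563 in muscle, a difference of 1.70 ± 0.35 (edgeR adjusted p 0.0089). The GYS1 call ended without Korean native liver, at 1.57 (adjusted p 0.056). The next gene along the chromosome in the RefSeq annotation of Sscrofa11.1, another build than the Sscrofa10.2 of the files, is FTL (ferritin light chain), 1844 bases away, with 3401 and 5075 CPM in liver, 1468 and 1211 in fat and 426 and 298 in muscle. No source used here gives the strand setting or gene models behind the counts. The level of GYS1 is therefore uncertain, and the part of FTL in it was not tested. ACSL1, which activates long-chain fatty acids, was the other muscle and fat form that rose, with 2902 and 1496 CPM in liver, 579 and 759.6 in fat and 366 and 299 in muscle and a difference of 2.17 ± 0.36. ACACA, the carboxylase of fatty acid synthesis, was highest in fat and did not pass, with 241 and 208 CPM in liver, 625 and 1029 in fat and 69 and 27.9 in muscle.

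**Figure D4:**
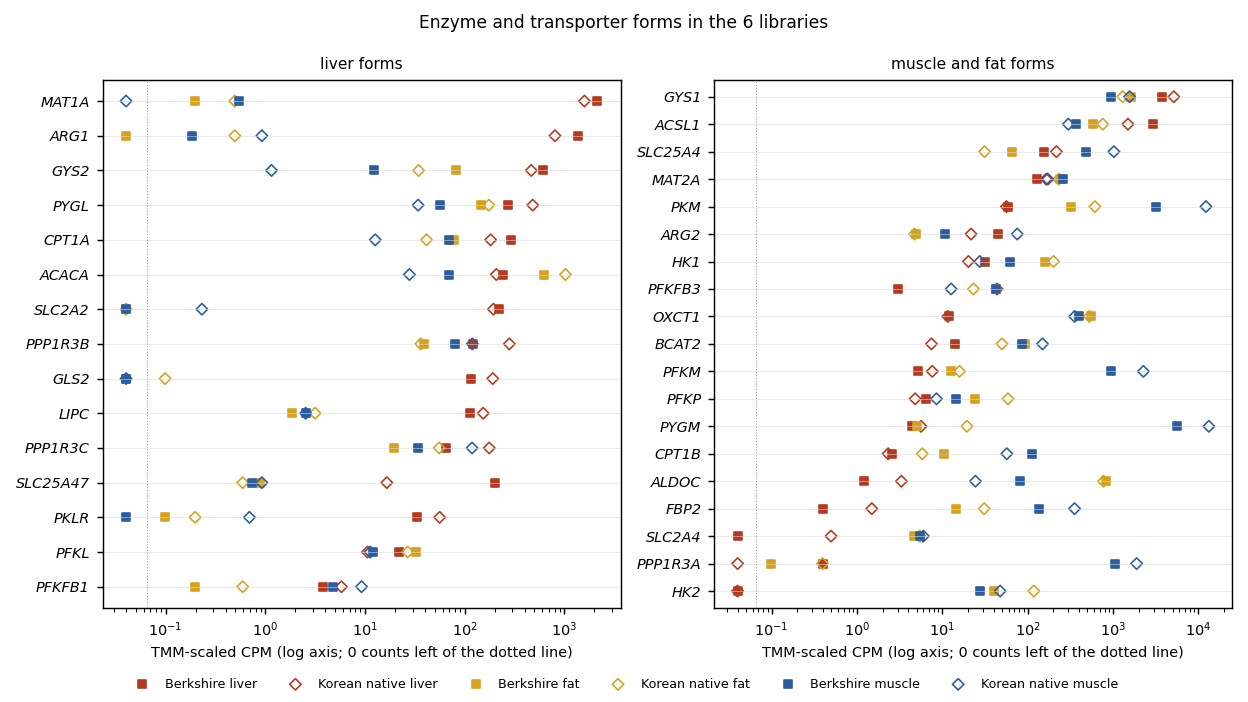
Each row is an enzyme, transporter or glycogen-targeting subunit and each symbol 1 of the 6 libraries (square Berkshire, open diamond Korean native; red liver, yellow fat, blue muscle), placed by TMM-scaled CPM on a log axis, with 0 counts left of the dotted line. The left panel holds liver forms and the right panel muscle and fat forms, ordered by liver level. Red symbols lie at the right in 11 of 15 rows of the left panel and at the left in 11 of 19 rows of the right panel, where GYS1 and ACSL1 are the 2 genes with red symbols at the right.

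Genes of epithelial architecture rose. Of 17 tested genes for cell junctions, keratins and polarity 13 rose, all 13 against both tissues, with a median of 5.28, or 5.20 with 1 gene at its bound. GJB1, the gap junction protein connexin 32, had 192 and 373 CPM in liver, 0.0979 and 0 in fat and 0 and 0 in muscle, a difference of 12.92 ± 0.59 (edgeR adjusted p 3.5e-05). DSP (desmoplakin) had 204 and 218 CPM in liver, 6.66 and 7.99 in fat and 18.7 and 17.5 in muscle, a difference of 4.19 ± 0.25. JUP (plakoglobin) had 66.6 and 39.8 CPM in liver, 169 and 144 in fat and 58.6 and 45.2 in muscle and did not pass in edgeR (-0.79 ± 0.27, adjusted p 0.059), while DESeq2 and limma-voom called it lower. Caveolae, the membrane pits of adipocytes, muscle and endothelium, showed the reverse, with 5 of 7 tested genes lower and a median of -1.69. CAV1 had 30.01 and 32.3 CPM in liver, 633 and 647 in fat and 492 and 184 in muscle, a difference of -3.84 ± 0.48 (edgeR adjusted p 0.0011). Without Berkshire liver 3 caveolar genes passed, CAV2 and CAVIN2 being lost at -0.87 and -1.35. CAV2 was also lost without Korean native fat, at -1.68, and CAVIN2 without Korean native liver, at -1.31.

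Markers of the other liver cells were examined in the same libraries. Of 11 tested Kupffer cell and macrophage genes 9 rose against the mean, with a median of 2.58. Only 5 rose against both tissues, and 3 with total counts. C1QA and CD68 passed against muscle but not against fat (edgeR adjusted p 0.21 and 0.14). The summed level of the list was 957 and 801 CPM in liver against 59.5 to 366 CPM elsewhere. CLEC4F, a lectin of Kupffer cells, had 52.4 and 41.3 CPM in liver, 0.196 and 0.394 in fat and 0.183 and 0 in muscle, a difference of 7.92 ± 0.45 (edgeR adjusted p 3.1e-05). MARCO, a scavenger receptor, had 9.8 and 83.8 CPM in liver, 0.392 and 0.394 in fat and 0.915 and 0 in muscle, a difference of 6.19 ± 0.85, with the Korean native liver the higher. CSF1R, the growth factor receptor of all macrophages, did not pass, with 49 and 28.2 CPM in liver, 43.4 and 84.6 in fat and 22 and 8.77 in muscle and 0.26 ± 0.45 (edgeR adjusted p 0.7). The model that pooled fat and muscle called 2 of the 11.

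Endothelial genes did not move as a block. Of 7 tested genes of the sinusoidal endothelium 3 rose and 2 fell; their median was 0.30, and -0.25 with total counts. OIT3 had 81 and 54.5 CPM in liver, 0 and 0 in fat and 0.183 and 0 in muscle, a difference of 10.53 ± 0.50 (edgeR adjusted p 4.4e-05), while CD209, a lectin shared with dendritic cells and macrophages, had 0.4 and 0.331 CPM in liver, 21.2 and 114 in fat and 22.7 and 7.38 in muscle, a difference of -6.41 ± 1.17. STAB1 and LYVE1 did not pass, and CLEC1B had no count in any library. Of 10 genes of endothelium in general 5 fell, with a median of -0.92. PECAM1 had 113 and 113 CPM in liver, 736 and 506 in fat and 336 and 272 in muscle, a difference of -1.92 ± 0.32 (edgeR adjusted p 0.0037), and KDR, the main receptor for vascular endothelial growth factor, had 165 and 151 CPM in liver, 130.2 and 105 in fat and 46.1 and 81.4 in muscle and did not pass (0.87 ± 0.31, adjusted p 0.066). Without Berkshire liver, and again without Korean native liver, 2 of the 10 fell; FLT1, TIE1 and ESAM were lost in both cases, with FLT1 at -1.49 and -1.30, TIE1 at -1.07 and -1.17 and ESAM at -1.80 and -1.77.

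Bile duct and stellate cell genes were present. EPCAM, an adhesion molecule of bile duct epithelium, had 9 and 15.7 CPM in liver, 0 and 0 in fat and 0.183 and 0 in muscle, a difference of 8.01 ± 0.70 (edgeR adjusted p 4.4e-04). With it 4 of 7 tested bile duct genes rose, while ANXA4, SOX9 and SPP1 did not pass (edgeR adjusted p 0.26, 0.1 and 0.18). ANXA4 was highest in fat, with 48 and 52.2 CPM in liver, 149 and 195.5 in fat and 31.7 and 23.5 in muscle. It passed as lower with total counts, at -1.01. The bile duct list summed to 192 and 166 CPM in liver, 173 and 232 in fat and 47.8 and 27.7 in muscle. Of 13 stellate cell genes 11 rose, with a median of 3.52, and their summed level was 594 and 477 CPM in liver against 52.8 to 281 CPM elsewhere. LRAT, which esterifies retinol for storage, had 12 and 17.6 CPM in liver and no count elsewhere, at least 17.4-fold higher; DESeq2 did not call it. COLEC11, a collectin, had 63.8 and 68.8 CPM in liver, 0 and 0.0986 in fat and 0 and 0 in muscle, a difference of 10.89 ± 0.55. BMP5 was the member that fell, by 1.30 ± 0.39, and its call ended in 5 of the 6 fits without 1 library, at -1.62 with the Berkshire and -1.01 with the Korean native liver left out, -1.18 without Korean native fat, and -1.35 and -1.31 without the Berkshire and the Korean native muscle.

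Blood cell genes rose as well, and unevenly. HBB, beta-globin, had 233 and 2031 CPM in liver, 109.6 and 177 in fat and 97.2 and 72.7 in muscle, so that the Korean native liver was far above the other 5 libraries, and its call (2.90 ± 0.69, edgeR adjusted p 0.016) ended without that library (1.15, adjusted p 0.13). ALAS2, the heme synthesis enzyme of red cell precursors, had 14 and 97.3 CPM in liver, 2.74 and 8.38 in fat and 4.21 and 3 in muscle, a difference of 3.22 ± 0.56. HBB belongs to a cluster of similar globin genes, so its level is uncertain. Of 11 tested lymphocyte genes 9 rose against the mean, with a median of 2.21, and 7 rose against both tissues, or 1 with total counts. The summed level of the list was 167 and 161 CPM in liver against 23.1 to 67.8 CPM elsewhere. CD4 had 30.01 and 20.2 CPM in liver, 2.35 and 1.38 in fat and 3.29 and 0.231 in muscle, a difference of 3.88 ± 0.46 (edgeR adjusted p 8.2e-04), and PTPRC, the common leukocyte antigen, had 69 and 76.6 CPM in liver, 29.2 and 34.5 in fat and 17.9 and 12.5 in muscle, a difference of 1.72 ± 0.27. With fat and muscle pooled 2 of the 11 lymphocyte genes passed, and without Berkshire liver 6. Without Korean native liver 5 of these genes passed, CD3D being lost at 1.81, CD8A at 1.35, MS4A1 at 2.39 and LCK at 0.91. LCK, a T cell kinase at 1.18 ± 0.36 (edgeR adjusted p 0.041), lost its call in every fit without 1 library (0.91 to 1.43), in DESeq2 (1.15) and with total counts (0.63). The part of blood left in the tissue in these differences, and that of the other non-hepatocyte cells in the differences above, was not tested.

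**Figure D5:**
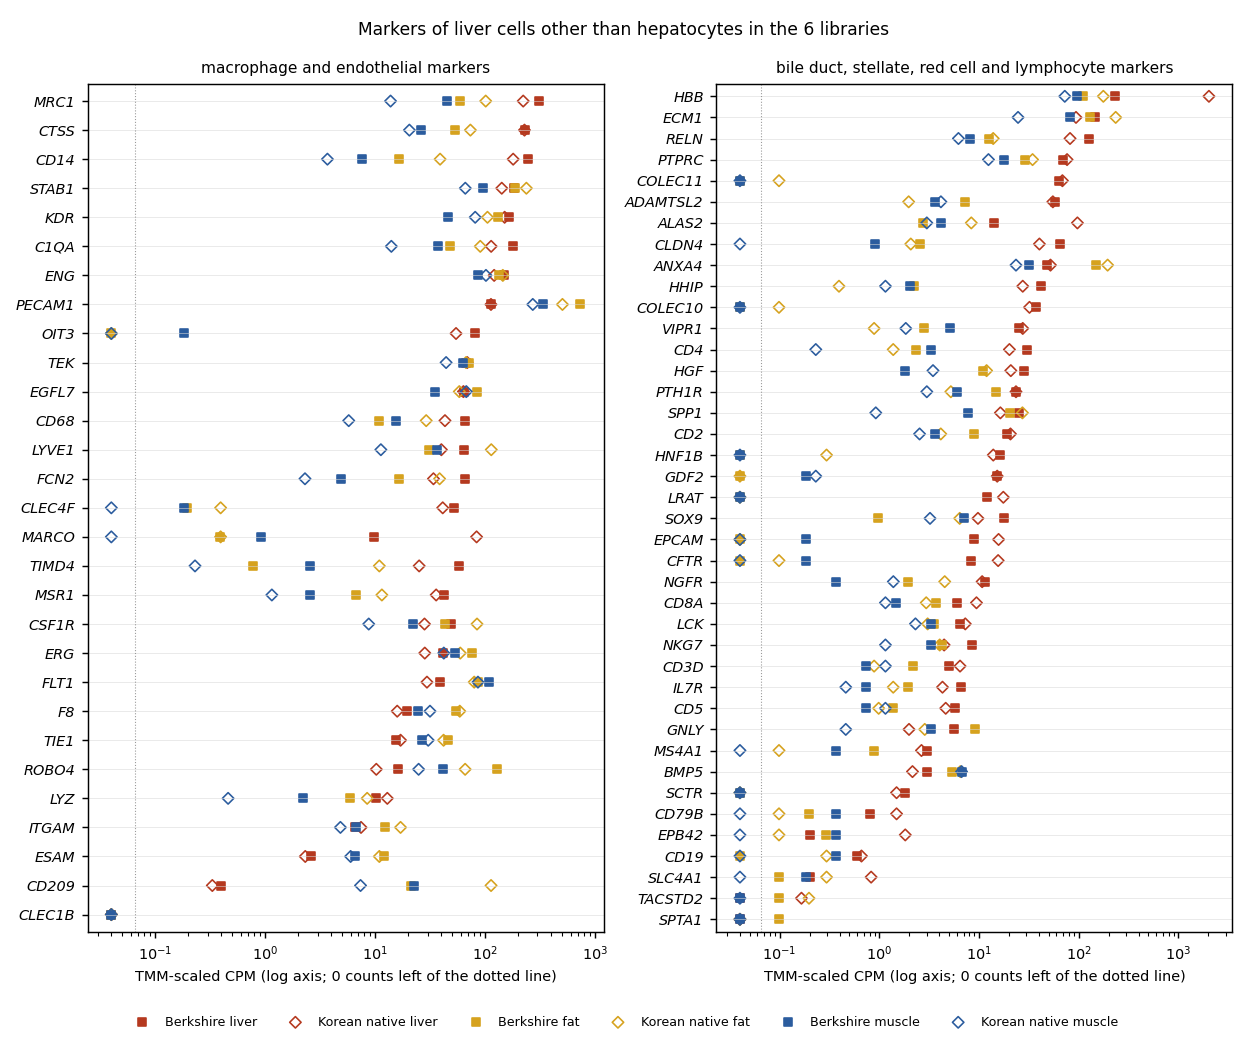
Each row is a marker of a cell type other than hepatocytes and each symbol 1 of the 6 libraries (square Berkshire, open diamond Korean native; red liver, yellow fat, blue muscle), placed by TMM-scaled CPM on a log axis, with 0 counts left of the dotted line. The left panel holds macrophage and endothelial markers and the right panel bile duct, stellate, red cell and lymphocyte markers. CLEC4F, OIT3 and COLEC11 lie far right in both livers, for PECAM1 the livers lie left of the others, and HBB reaches 2031 CPM in the Korean native liver.

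Genes of the other tissues were low in liver to different degrees. All 7 tested adipocyte markers fell against the mean (18 listed, median -5.94, or -5.34 with TRARG1 at its bound), and both livers lay below all 4 others for all 7. The muscles carried these transcripts too, and only 5 of the 7 passed as lower than both tissues. CIDEC, for one, did not pass against muscle (-1.79, edgeR adjusted p 0.088). LIPE, hormone-sensitive lipase, had 1.6 and 1.66 CPM in liver, 1035 and 502 in fat and 79.99 and 19.6 in muscle, a difference of -6.69 ± 0.59 (edgeR adjusted p 2.3e-04). GPD1, of glycerol phosphate synthesis, was the least different, with 75.4 and 46.2 CPM in liver, 172 and 139 in fat and 246 and 1145 in muscle and -2.35 ± 0.66; its call ended without Berkshire fat (-1.92) or Korean native liver (-1.58). All 17 tested skeletal muscle markers fell against the mean (median -5.21), through muscle alone: the median was -11.32 against muscle and 0.83 against fat. ACTA1, skeletal actin, had 20.8 and 22 CPM in liver, 8.32 and 13.8 in fat and 49070 and 71090 in muscle, so the livers stood above both fat libraries.

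Connective tissue genes were lower in liver with 1 clear exception. Of 26 tested matrix and fibroblast genes 21 fell and 1 rose, with a median of -3.29. DCN (decorin) had 72.2 and 86.7 CPM in liver, 1277 and 2408 in fat and 1954 and 978 in muscle, a difference of -4.37 ± 0.56 (edgeR adjusted p 0.0011). LUM (lumican) had 2.6 and 5.63 CPM in liver, 413 and 566 in fat and 579 and 245 in muscle, a difference of -6.75 ± 0.68. FN1, fibronectin, which hepatocytes secrete into plasma, was the member that rose, with 10350 and 9845 CPM in liver, 1121 and 2650 in fat and 1798 and 701 in muscle and a difference of 2.72 ± 0.51 (edgeR adjusted p 0.0063). POSTN (periostin) was likewise highest in both livers, with 954 and 671 CPM in liver, 102 and 100.4 in fat and 588 and 22.1 in muscle, and missed the threshold in edgeR (2.50 ± 0.83, adjusted p 0.054) but passed in DESeq2 and limma-voom.

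Genes of the machinery common to all cells passed in part. Of 21 tested oxidative phosphorylation genes 2 fell (COX5A among them, median of the list -0.42), and of 16 ribosomal protein genes 4 fell (median -0.67). Among all tested genes 16.1% were lower by the same call. Both livers lay below all 4 others for 12 of the 16 ribosomal protein genes and 5 of the 21 oxidative phosphorylation genes, against 20.8% of all genes. DESeq2 called 7 of the ribosomal protein genes lower. Among 18 proteasome genes edgeR called none (median 0.00), 1 being higher at an unadjusted p under 0.05 and DESeq2 and limma-voom calling 0. These counts moved with the setting. With total counts 11 respiratory chain genes, 12 ribosomal protein genes and 5 proteasome genes fell. Leaving out 1 library gave 0 to 8 respiratory chain genes (0 without Korean native liver or Berkshire fat, 8 without Berkshire muscle) and 0 to 7 ribosomal protein genes (0 without Korean native liver, 7 without Berkshire muscle).

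The livers themselves were unlike at a minority of genes. Among the 1608 higher genes, 91 were at least 4-fold apart between the livers, 46 of them higher in the Korean native one, against 337 of all 13810 tested genes (2.44%). The median size of that gap over the 1608 genes was 0.48 on the log2 scale. Among list members with at least 10 CPM in 1 liver, 25 were at least 4-fold apart, 14 higher in the Berkshire liver and 11 in the Korean native one. The share of all genes at that level was not taken, so this count is a description only. SLC25A47, a mitochondrial carrier of liver, had 204 and 16.6 CPM and PCK1 2339 and 294 CPM. With 1 library of each breed these gaps have no replicate. Both livers were above all 4 others for SLC25A47 and PCK1.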

How the data were processed

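Total RNA was extracted with Trizol and 1 µg per library was made into Illumina TruSeq libraries, per the labels' protocols. The authors deposited 1 table of raw counts per library, with 25322 gene IDs, for which the submitters' processing notes name TopHat, HTSeq 0.5.3p3 and the build Sscrofa10.2. The annotation and the strand setting were not given in the sources used here. The 5 closing rows that name no gene were left out: reads outside genes were 45.9% to 52.5% of each table's total, and reads aligned at more than 1 place 14.1% to 20.8%. Symbols matched 11804 IDs (46.6%), which held 77.8% to 82.3% of gene counts.

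Counts were fitted in R 4.3.3 with edgeR 4.0.16 (filterByExpr, TMM factors, quasi-likelihood test) on tissue and breed, over all 6 libraries, leaving 2 residual degrees of freedom. The biological coefficient of variation was 29.5%. Contrasts were liver minus the mean of fat and muscle, minus fat and minus muscle, each adjusted over 13810 genes. SEs were derived from the F statistic and are not fitted ones. DESeq2 1.42.0 and limma 3.58.1 (voom), other scalings, no filter, no breed term, fat and muscle pooled and leaving out each library were alternatives. The test was checked on simulated data.

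Named genes were the 4 markers and the 12 with a symbol of largest fitted difference in each direction apart from both tissues with a mean of 50 CPM. From each list they were the 5 of highest mean CPM, those of largest and smallest fitted difference and those that passed against the list's direction. All members of the lists of factors, hormones, enzyme forms, caveolae and cell types other than hepatocytes could be named; some of them are not reported here, and list counts include them. The genes, the 34 lists and the comparison were chosen with earlier results of these data known. Replicate numbers follow the breed. Deviations from the tissue means correlated between tissues of a breed (liver with fat r = 0.17, liver with muscle 0.17, fat with muscle 0.13) over genes, which are not independent replicates; breed is a term of the fit.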

Additional observations from a re-analysis of the deposited data

Results flagged for a closer look

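In 3 genes of the lists liver lay on opposite sides of the mean of fat and muscle in the breeds, by at least 1 log2 in each. Genes with a smaller difference in either breed, such as IGF1, were not counted. For PFKFB3, which makes the activator of glycolysis fructose 2,6-bisphosphate, the Berkshire liver had 3 CPM and the Korean native liver 43.8 CPM, against 42.6 to 43.1 CPM in Berkshire fat and muscle and 12.7 to 23.2 CPM in Korean native fat and muscle. On the log2(CPM + 1) scale, liver minus the mean of fat and muscle was -3.45 in Berkshire and 1.30 in Korean native. For SULT1A3, a phenol sulphotransferase, the livers had 77 and 0.994 CPM, and the 4 others 28.7 to 63.2 CPM. The difference was 1.28 in Berkshire and -4.59 in Korean native. For ACAA2, a thiolase of mitochondrial fatty acid oxidation, the livers had 711 and 8.95 CPM, and the 4 others 49.4 to 117.7 CPM, so that the difference was 3.34 in Berkshire and -3.35 in Korean native. With 1 library per breed and tissue the difference between the breeds was not tested. SULT1A3 belongs to a family of similar genes whose reads may be split between copies.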

How the results depend on the processing

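With fat and muscle pooled into 1 level, 1149 genes were higher and 449 lower than their mean. With total gene counts as the scaling, 1733 were higher and 4104 lower (29.7% higher, against 54.1%), and 1042 were higher and 1879 lower than both tissues (35.7% against 60.3%); the median gene moved from 0.01 to -0.54. Without 1 library the counts ran from 1786 to 2663 higher and 1305 to 2464 lower than the mean, and from 1210 to 1517 higher and 626 to 1052 lower than both, with the fewest lower genes when a liver was left out (1456 and 670 without Berkshire, 1305 and 626 without Korean native). The fit without the breed term, which is the replicate block of this design, gave 2541 and 2107, and 1528 and 978 against both. DESeq2 gave 2435 and 2385, limma-voom 2660 and 2399, DESeq2's size factors in edgeR 2555 and 2298 and no filter 2848 and 2411. Of 331 tested named genes none went from a call in 1 direction to a call in the other. Differences of some genes without a call changed sign, as for PFKFB3 (-3.84 to 1.32) and SULT1A3 (-5.57 to 1.29). Calls were lost for 125 with fat and muscle pooled, 30 without Berkshire liver, 31 without Korean native liver, 14 with total counts and at most 11 under each other alternative. A fit without 1 library has 1 residual degree of freedom and takes the lone library of a tissue to vary like the other tissues. Libraries of 5897407 to 7912093 gene counts leave levels under 0.294 to 0.692 CPM at the 3-count floor. The cause of these shifts was not tested, except that pooling fat and muscle adds their difference to the spread by construction.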

Other observations

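Most genes that differed from the mean without passing against both tissues did so through muscle. Of 1009 such higher genes, 631 passed against muscle alone and 267 against fat alone, and of 1162 such lower genes 684 passed against muscle alone and 446 against fat alone. For some genes liver lay between the other tissues and passed against each, with fat the lowest for 49 and muscle the lowest for 13.

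Among hormone receptors, LEPR, the leptin receptor, had 245 CPM in the Berkshire liver and 12.8 CPM in the Korean native one, against 6.96 to 12.9 CPM in fat and muscle, and KLB, a coreceptor for fibroblast growth factors of bile acid control, 10.4 and 51.5 CPM against 6.69 to 106.7 CPM. ACADL, an acyl-CoA dehydrogenase, had 85.8 and 568 CPM in the Berkshire and the Korean native liver, and the 4 others 90.5 to 175 CPM. MBL2, a lectin that starts complement, had 391 and 4.14 CPM. These genes were picked after their values were seen, and each breed has 1 liver library, so no difference between the breeds was tested.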
